A study of Mus musculus with 7 samples.

Results

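The genes described here encode components of fibroblast growth factor (FGF) signalling. They were taken as the rows of the deposited expression table whose symbol stood on a list of 37 genes, of 19144 symbols in all. The list holds 13 secreted ligands, the endocrine-type ligand Fgf15, 4 intracellular FGF homologous factors, 5 receptors, 2 adaptors, 9 feedback inhibitors and 3 ETS transcription factors, and all 37 had a row. RNA was sequenced from GFP-bearing (green fluorescent) mouse cells, sorted out of pharyngeal arches 3 to 6 at stage E10.5. The 3 Chd7 deletion libraries, numbered 1, 3 and 4, came from embryos carrying Wnt1-Cre2, the mTmG reporter and floxed Chd7 (loxp/loxp). The 4 wild type libraries, numbered 1 to 4, came from embryos carrying Wnt1-Cre2, mTmG and Chd7 labelled +/+. Every group therefore carried the Cre transgene and the reporter. Wnt1-Cre2 is active in the dorsal neural tube and the neural crest that leaves it, so the GFP marks a lineage and not a single cell type. The labels give mothers with 2 floxed Chd7 copies, which leaves each embryo at least 1 floxed copy, so the genotype of the wild type group was taken as labelled. The number of embryos behind a library is not stated, and p-values measure the spread between libraries, which may be partly technical.

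FGF ligands are secreted proteins that bind receptor tyrosine kinases together with heparan sulfate, and the adaptor FRS2 passes the signal to the RAS-ERK cascade. ERK activity raises the ETS transcription factors ETV1, ETV4 and ETV5, and it also raises inhibitors that dampen the same cascade, among them Sprouty and SPRED proteins, the ERK phosphatase DUSP6 and the membrane protein IL17RD, also called SEF. In the pharyngeal arches, ectoderm and endoderm are known sources of FGF8, and the neural crest between them responds through its receptors.

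Expression was given as FPKM, reads scaled by gene length and library total, so levels of different genes can be set side by side. Sequencing depth, estimated from how low values step, was between 0.865 and 1.12 times that of wild type 1 in the Chd7 deletion libraries and between 0.912 and 1.29 times in the wild type libraries. The 11039 genes that averaged 1 FPKM or more across all 7 libraries were tested with limma on log2(FPKM + 1), and p-values were adjusted over all of them. Log2 fold changes are differences on that scale, so for low genes they are smaller than the ratio of the FPKM means implies. Chd7 itself stood at 7.5, 7.72 and 7.92 FPKM in the deletion libraries, against 14.0, 13.9, 14.6 and 14.3 FPKM in the wild type libraries (log2 fold change -0.80, SE 0.062, limma adjusted p = 0.00266). The first principal component, with 60.5% of the variance, separated libraries 1 and 2 of either genotype from libraries 3 and 4, and Chd7 deletion 1 is the only deletion library of the first set. Libraries that share a number deviated together from their group means, so a fit with the replicate number as a block is given wherever it changes a call. Wild type 2 has no partner, so that fit compares 3 pairs.

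The sorted cells expressed markers of arch neural crest in every library, with a summed level of 116 to 146 FPKM in Chd7 deletion libraries and 127 to 161 FPKM in wild type libraries over 8 genes. Among them the mesenchymal gene Hand2 fell to 6.61 ± 1.4 FPKM after deletion, against 15.3 ± 1.96 FPKM in the wild type (SD, n = 3 and 4, limma adjusted p = 0.0142), while Sox10 and Foxd3, which mark early crest and glia, rose (adjusted p = 0.0193 and 0.0142). Twist1 (12.9 ± 3.12 FPKM after deletion, 22.4 ± 3.37 FPKM in the wild type) and Prrx1 (22.3 ± 4.83 and 36.3 ± 5.63 FPKM in the same order) were lower. They were called with the block (limma adjusted p = 0.00694 and 0.00628) but not without it (0.113 and 0.157). Both were also called within replicates 3 and 4 alone (limma adjusted p = 0.0186 and 0.00816). Msx1, Tfap2a and Tfap2b were called in neither fit, with log2 fold changes of -0.31, 0.0071 and 0.20. Glial markers had a higher sum after deletion, 112 to 123 FPKM over 6 genes against 71.0 to 83.0 FPKM in the wild type, and 3 of 5 tested rose (4 with the block). Sox10 and Foxd3 stand on both lists. Fewer cells of one kind and less RNA per cell cannot be told apart in these bulk libraries, and the part of this shift in the FGF values below was not tested. Epithelial markers summed to 6.49 to 12.7 FPKM in Chd7 deletion libraries and 7.25 to 11.1 FPKM in wild type libraries over 6 genes, and endothelial markers to 2.06 to 4.09 and 2.45 to 3.93 FPKM over 6 genes. The sums were 13.0 to 33.0 FPKM after deletion and 12.7 to 21.1 FPKM in the wild type for 7 blood genes, 3.1 to 4.46 and 1.07 to 4.46 FPKM for 5 cardiomyocyte genes, 13.3 to 25.2 and 10.6 to 19.7 FPKM for 5 neural tube genes, and 186 to 317 and 176 to 340 FPKM for 5 neuronal genes. Of 4 markers of skeletal muscle and core mesoderm, Myf5 and Myod1 were below 0.1 FPKM in every library, and the 4 together summed to 0.467 to 1.0 FPKM after deletion and 0.537 to 0.949 FPKM in the wild type.

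Of the 37 members, 21 passed the expression filter. None was called in limma (0.888% of all genes tested were), and 8 had an unadjusted p below 0.05, 1 higher and 7 lower after deletion, where 7.38% of all genes did, 2.56% higher and 4.82% lower. With the replicate block 5 were called, all lower after deletion, against 3.32% of all genes called in that fit and 2.27% called lower. The 5 were the ligand gene Fgf10, the receptor gene Fgfr1, the feedback gene Il17rd and the ETS genes Etv1 and Etv4. At an unadjusted p below 0.05 the block gave 11 members lower and 1 higher, Fgfr3. Of all genes 22.8% passed, 17.7% lower and 5.11% higher. By sign alone 16 of 21 were lower after deletion, against 65.4% of all genes, with a median log2 fold change of -0.12 beside -0.04 for all genes. With libraries rescaled to equal totals without Rn45s, 11 of 21 were lower, against 39.5% of all genes, and with median ratio scaling 12 of 21, against 54.1%. In the comparison of each deletion library with the wild type library of the same number, 11 of 21 were lower in all 3 pairs (36.7% of all genes were) and 2, Fgfr3 and Spry4, were higher in all 3 (11.5% of all genes). Deletion and wild type values were fully separate for 5 of 21, Fgf10, Fgf13, Fgfr1, Etv1 and Etv4, all lower after deletion, against 9.17% of all genes tested and 6.17% on the lower side. Within replicates 3 and 4 alone, 2 libraries of each genotype, no member was called, where 1.24% of all genes were.

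**Figure D1:**
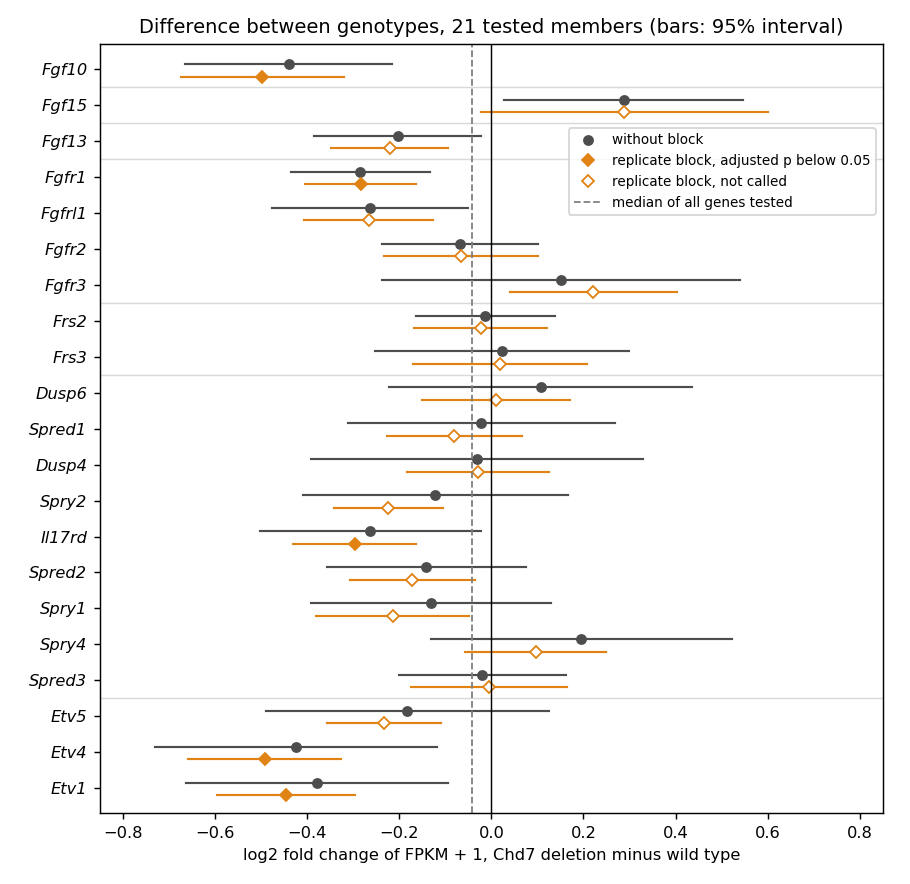
Difference in log2(FPKM + 1), Chd7 deletion minus wild type, for the 21 tested members by class. Circles give the fit without a block and diamonds the fit with the replicate number as a block, each with its 95% interval. Filled diamonds mark the 5 members called under the block, all left of 0. The dashed line is the median of all genes tested in the fit without the block (-0.04). With the block that median was -0.07.

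Promoters are shown for 4 of the members that were lower after deletion, to let the sequence around their start be read beside the values. They are the 3 called under the block that the promoter table holds, and Fgf5, which was not tested under the filter. Each runs 5′ to 3′ on the gene's strand from 250 bases before to 50 bases after the annotated start, from RefSeq on build GRCm38.p6. All 4 genes lie on the plus strand, and the windows are chr13:118714449-118714748 for Fgf10, chr5:98253934-98254233 for Fgf5, chr12:38779832-38780131 for the first of 2 Etv1 starts and chr14:27038751-27039050 for Il17rd. Capitals mark CCGGAA or AGGAAG on either strand, both built on GGAA, the core that ETS factors such as ETV1, ETV4 and ETV5 bind.
Fgf10: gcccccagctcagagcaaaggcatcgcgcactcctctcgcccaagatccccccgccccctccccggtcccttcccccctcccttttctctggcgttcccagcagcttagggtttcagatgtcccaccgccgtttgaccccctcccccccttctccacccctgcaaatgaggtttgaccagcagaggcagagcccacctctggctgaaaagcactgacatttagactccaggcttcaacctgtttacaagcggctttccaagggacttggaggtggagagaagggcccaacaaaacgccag
Fgf5: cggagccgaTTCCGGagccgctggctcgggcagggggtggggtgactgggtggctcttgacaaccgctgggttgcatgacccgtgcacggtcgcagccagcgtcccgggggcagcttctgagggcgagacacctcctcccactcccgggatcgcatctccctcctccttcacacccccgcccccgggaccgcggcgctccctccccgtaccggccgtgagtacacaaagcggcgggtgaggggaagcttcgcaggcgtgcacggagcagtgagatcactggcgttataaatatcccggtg
Etv1: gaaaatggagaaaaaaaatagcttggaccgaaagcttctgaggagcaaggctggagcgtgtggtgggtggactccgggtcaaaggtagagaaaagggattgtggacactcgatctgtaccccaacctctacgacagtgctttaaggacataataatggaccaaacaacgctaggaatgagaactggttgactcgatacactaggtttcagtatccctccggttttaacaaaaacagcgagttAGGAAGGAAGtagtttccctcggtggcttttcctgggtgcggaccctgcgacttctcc
Il17rd: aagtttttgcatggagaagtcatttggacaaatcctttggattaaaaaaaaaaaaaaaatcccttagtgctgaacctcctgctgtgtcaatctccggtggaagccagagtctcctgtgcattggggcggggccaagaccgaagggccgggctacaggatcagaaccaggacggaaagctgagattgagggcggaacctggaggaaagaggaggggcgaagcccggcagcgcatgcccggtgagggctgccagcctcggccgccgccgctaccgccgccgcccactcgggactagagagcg
Fgf5 held 1 CCGGAA, read on the other strand, near the upstream end of its window. Etv1 held 2 overlapping AGGAAG at the first of its starts, the second copy reaching past it. The window of the other Etv1 start, not shown, held neither CCGGAA nor AGGAAG. These letters were also in neither the Fgf10 nor the Il17rd window. Fgf13, which was also lower with separate groups, is not shown, and none of its windows held CCGGAA or AGGAAG. The table matched 27 members with 36 promoters. CCGGAA stood in 6 of the 36 (16.7%) and in 14.9% of all 32851 promoters, and AGGAAG in 9 of the 36 (25.0%) and in 35.4% of all. The genes Fgf1, Fgf8, Fgf15, Fgf16, Fgf17, Fgf20, Fgfr1, Spry4, Dusp4 and Etv4 had no entry.

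Secreted ligands were low in these cells. Among the 13, only Fgf10 averaged 1 FPKM or more, and 10 stayed below 0.5 FPKM in every library. Their sum over the class was 3.34, 3.53 and 3.44 FPKM in Chd7 deletion 1, 3 and 4, against 4.29, 4.19, 5.0 and 4.69 FPKM in wild type 1 to 4. The deletion libraries were all below the wild type libraries, and Fgf10 and Fgf5 were the ligands furthest below the wild type in FPKM.

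Fgf10, a ligand made by mesenchyme in many organs and by the second heart field, had 0.666, 0.947 and 0.897 FPKM in Chd7 deletion 1, 3 and 4, against 1.52, 1.21, 1.73 and 1.52 FPKM in wild type 1 to 4. All deletion libraries lay below all wild type libraries. These values rest on an estimated 107, 140 and 111 reads after deletion and 217, 223, 247 and 198 reads in the wild type. The mean after deletion was 56.0% of the wild type mean (0.836 ± 0.15 FPKM, SD, n = 3, and 1.49 ± 0.216 FPKM, SD, n = 4). The log2 fold change of FPKM + 1 was -0.44 (SE 0.098), with limma adjusted p = 0.121 without the block and 0.0241 with it. By exact two-sided permutation of genotype (35 arrangements) p was 0.0286, the smallest this design allows. The difference was of like size in both library sets, -0.45 in replicates 3 and 4 and -0.50 in replicates 1 and 2. In the latter set Chd7 deletion 1 is the only deletion library. Fgf10 lies on chromosome 13 of GRCm38 (GENCODE annotation) from 118669791 to 118792115, and an exon of Gm16263 overlaps it on the other strand. Reads of that gene could count towards it if strand was not used, which the sources used here do not state.

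Fgf5, a ligand known for ending the growth phase of hair follicles and for its expression in the early embryo, was under the filter with a mean below 1 FPKM and is named because its groups did not overlap, which was seen in the values. Its level was 0.454, 0.506 and 0.398 FPKM in Chd7 deletion 1, 3 and 4, against 0.817, 1.07, 1.28 and 1.45 FPKM in wild type 1 to 4. The estimated reads behind them were 40, 41 and 27 after deletion and 64, 108, 100 and 104 in the wild type. The deletion mean was 39.2% of the wild type mean, and the lowest wild type library, number 1, still had more than the highest deletion library. In a fit of all 19144 symbols without the filter, its log2 fold change of FPKM + 1 was -0.56 (limma unadjusted p = 8.59e-04, adjusted p = 0.103). No member was called in that fit (0.324% of genes were).

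Fgf18, a ligand of skeletal and lung development, had 1.15, 1.05 and 0.793 FPKM in Chd7 deletion 1, 3 and 4, against 0.968, 0.954, 0.992 and 0.818 FPKM in wild type 1 to 4. Its deletion values spanned the whole wild type range. Fgf8, the ectodermal and endodermal ligand of the arches, had 0.0647, 0.0469 and 0.028 FPKM after deletion and 0.0969, 0.132, 0.0973 and 0.0266 FPKM in the wild type. That is an estimated 3, 2 and 1 reads, against 4, 7, 4 and 1 reads, so a difference could not be read at this depth. The epithelial genes Epcam (0.718 to 1.54 FPKM after deletion, 0.713 to 1.18 FPKM in the wild type) and Cdh1 (0.783 to 1.4 and 0.771 to 0.962 FPKM) were present at low level in the same libraries. Fgf3, which is expressed in pharyngeal endoderm and the otic region, had 0.262 to 0.414 FPKM after deletion and 0.107 to 0.44 FPKM in the wild type. Fgf9, a ligand of lung and gonad development, had 0.209 to 0.378 FPKM after deletion and 0.203 to 0.287 FPKM in the wild type. Both overlapped between the groups. Fgf1, which binds all the FGF receptors, had 0.211, 0.213 and 0.302 FPKM after deletion, against 0.204, 0.0507, 0.148 and 0.17 FPKM in the wild type. These values did not overlap but rest on an estimated 8 to 32 reads. The other 6 secreted ligands, Fgf2, Fgf7, Fgf16, Fgf17, Fgf20 and Fgf22, reached at most 0.131 FPKM after deletion (Fgf17) and 0.231 FPKM in the wild type (Fgf2). Fgf20 was listed at 0 in every deletion library and in 3 wild type libraries, and Fgf22 in 2 deletion libraries and every wild type library.

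Fgf15, the mouse counterpart of human FGF19, is an endocrine-type ligand in the adult gut and is expressed in the embryonic neural tube and pharynx. In the fit without the block it was the one member on the higher side with an unadjusted p below 0.05. Its level was 1.53, 1.95 and 1.9 FPKM in Chd7 deletion 1, 3 and 4, against 1.72, 1.29, 1.14 and 1.05 FPKM in wild type 1 to 4. Wild type 1 stood above Chd7 deletion 1, so the groups overlapped. The log2 fold change was 0.29 (SE 0.114; limma adjusted p = 0.598, or 0.243 with the replicate block). It was 0.48 within replicates 3 and 4 (adjusted p = 0.0851) and 0.02 within replicates 1 and 2, where Chd7 deletion 1 is the only deletion library. Exons of Gm26793 and Gm39119 overlap Fgf15 on the other strand.

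**Figure D2:**
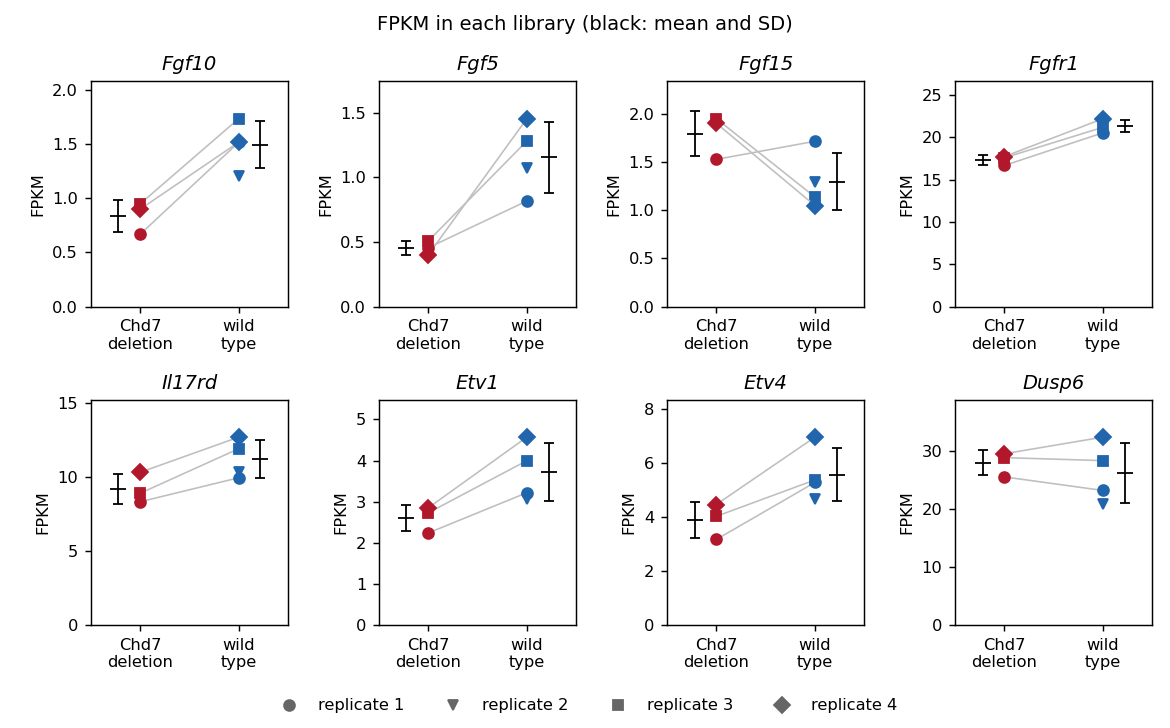
FPKM of 8 members in each library, Chd7 deletion left and wild type right, with grey lines joining libraries of the same replicate number and black marks for the mean and SD. Fgf10, Fgf5, Fgfr1, Etv1 and Etv4 have every deletion library below every wild type library; Il17rd is lower in each joined pair; Fgf15 and Dusp6 overlap.

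The intracellular FGF homologous factors, which are not secreted and bind voltage-gated sodium channels and microtubules, were led by Fgf13. Fgf13 had 4.97, 5.49 and 4.61 FPKM in Chd7 deletion 1, 3 and 4, against 6.04, 5.68, 6.41 and 5.6 FPKM in wild type 1 to 4. The groups did not overlap, although Chd7 deletion 3 and wild type 4 lay close together. The log2 fold change was -0.20 (SE 0.0794; limma adjusted p = 0.586, or 0.0859 with the block). Fgf11 (0.646 to 0.895 FPKM after deletion and 0.602 to 0.846 FPKM in the wild type), Fgf14 (0.59 to 0.817 and 0.468 to 0.929 FPKM) and Fgf12 (0.148 to 0.259 and 0.17 to 0.211 FPKM) were under the filter and overlapped between the groups.

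Among the receptors, Fgfr1 was the highest in every library. Fgfr1, the main FGF receptor of mesenchyme, had 16.7, 17.6 and 17.7 FPKM in Chd7 deletion 1, 3 and 4, against 20.5, 21.4, 21.2 and 22.2 FPKM in wild type 1 to 4. The wild type libraries were close together and all above the deletion libraries. The deletion mean was 81.2% of the wild type mean (17.3 ± 0.567 FPKM, SD, n = 3, and 21.3 ± 0.689 FPKM, SD, n = 4). The log2 fold change was -0.28 (SE 0.066; limma adjusted p = 0.139, or 0.0411 with the replicate block), and the exact two-sided permutation p was 0.0286. The log2 difference was -0.28 within replicates 3 and 4 and -0.31 within replicates 1 and 2, where Chd7 deletion 1 is the only deletion library. The table gives 1 value per gene, so the splice forms of the receptors that differ in ligand choice are not separated. Fgfr1 lies on chromosome 8 from 25513654 to 25575718, with an exon of Gm16159 on the other strand.

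Fgfrl1, a receptor without a kinase domain that binds FGF ligands, had 8.9, 9.44 and 10.2 FPKM after deletion, against 10.1, 11.5, 12.1 and 12.9 FPKM in the wild type. It was lower in all 3 same-number pairs, but deletion 4 reached the level of wild type 1. Its log2 fold change was -0.26 (SE 0.0931), with limma adjusted p = 0.464, or 0.069 with the block. Fgfr2, the receptor for FGF10 in epithelia, had 6.94, 7.85 and 8.09 FPKM after deletion, against 8.18, 8.07, 8.29 and 7.6 FPKM in the wild type, and its groups overlapped, with a 95% interval of the log2 difference from -0.24 to 0.10. Fgfr3, a receptor of neural progenitors and cartilage, had 8.51, 8.99 and 6.02 FPKM after deletion, against 8.06, 8.11, 6.56 and 5.14 FPKM in the wild type. Its groups overlapped. It was lowest in the library numbered 4 of each group, and each deletion library but number 4 was above every wild type library. Its log2 fold change was 0.15 (limma adjusted p = 0.952), or 0.22 with the block (adjusted p = 0.165). Fgfr4 had 0.217 to 0.275 FPKM after deletion and 0.183 to 0.296 FPKM in the wild type. Of the summed level of the 4 tyrosine kinase receptors, 32.33, 34.69 and 32.08 FPKM after deletion and 36.95, 37.71, 36.34 and 35.16 FPKM in the wild type, Fgfr1 made up 50.7% to 55.2% after deletion and 55.6% to 63.2% in the wild type.

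For the adaptor genes no difference beyond the spread of the libraries was detected. Frs2, which links the activated receptor to GRB2, had 7.26, 7.8 and 7.96 FPKM in Chd7 deletion 1, 3 and 4, against 7.97, 7.56, 7.96 and 7.5 FPKM in wild type 1 to 4. The 95% interval of its log2 difference ran from -0.16 to 0.14. Frs3, its close relative, had 1.21 to 1.78 FPKM after deletion and 1.23 to 1.95 FPKM in the wild type, with an interval from -0.25 to 0.30.

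**Figure D3:**
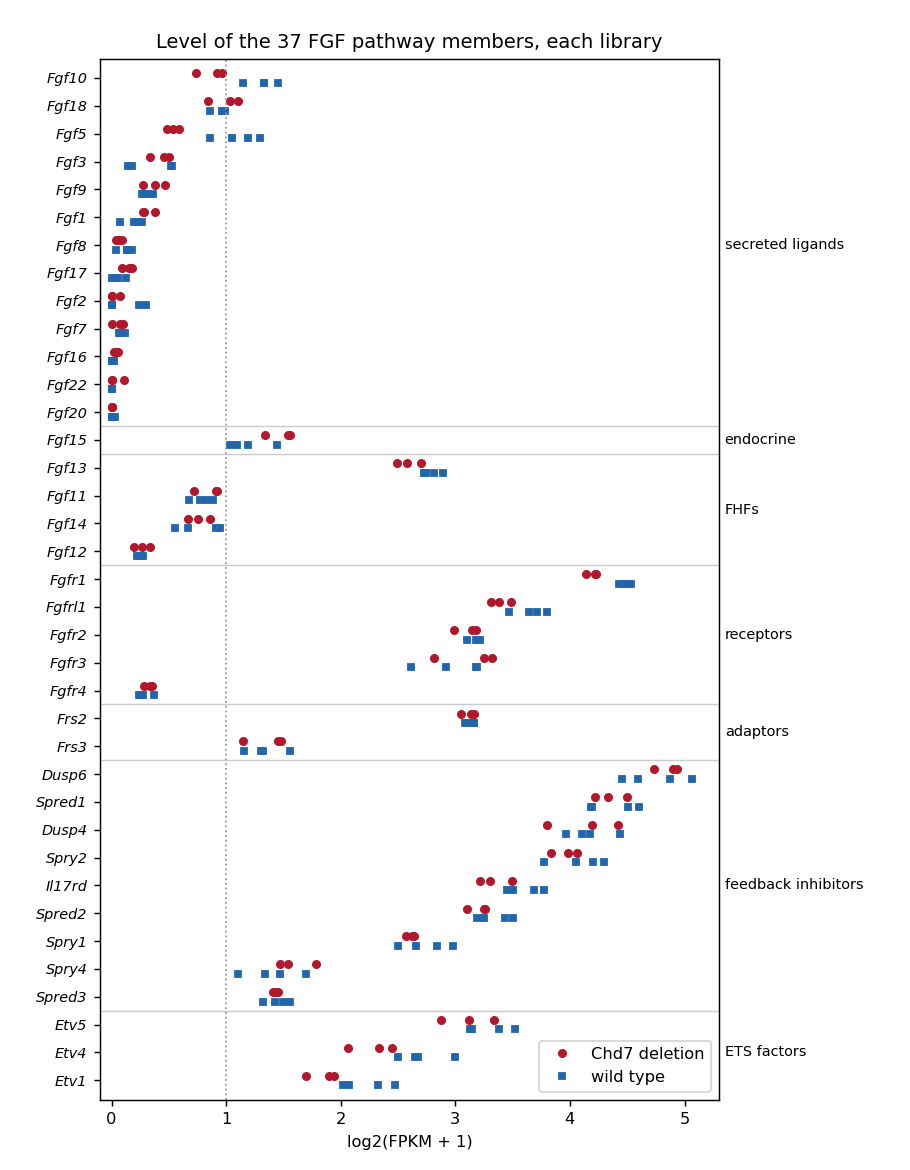
Level of all 37 members on the log2(FPKM + 1) scale in each library, by class (FHFs are the FGF homologous factors), with red circles for Chd7 deletion and blue squares for wild type. The dotted line marks 1 FPKM; most secreted ligands lie left of it, while Fgfr1, the receptors Fgfr2, Fgfr3 and Fgfrl1 and most feedback inhibitors lie far to the right.

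Feedback inhibitors were the most abundant class, and 4 of the 5 highest members of the list belong to it (Dusp6, Spred1, Dusp4 and Spry2, with Fgfr1 between Spred1 and Dusp4). Dusp6 was above Spred1, Dusp4 and Spry2 in each of the 7 libraries, and above Fgfr1 in all but wild type 2 (20.95 against 21.35 FPKM). Below Dusp6 the ranges of neighbours in this order overlap over the 7 libraries. The order among Spred1, Fgfr1, Dusp4 and Spry2 is therefore not resolved. All 9 feedback genes were tested. In 7 the fold change was negative, and the class median was -0.03 (log2) beside -0.04 for all genes. Over the alternative settings that median ran from -0.14 (replicates 3 and 4) to 0.046 (equal totals without Rn45s), and it was -0.08 with the block. The median of all genes in these settings was -0.04, 0.03 and -0.07, in the same order. The summed level of the class was 101 to 108 FPKM after deletion and 94.5 to 123 FPKM in the wild type, which overlap.

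Dusp6, a phosphatase that inactivates ERK in the cytoplasm, had 25.6, 28.9 and 29.6 FPKM in Chd7 deletion 1, 3 and 4, against 23.2, 20.9, 28.4 and 32.4 FPKM in wild type 1 to 4. It followed the library sets, with 20.9 to 25.6 FPKM in libraries numbered 1 and 2 and 28.4 to 32.4 FPKM in those numbered 3 and 4. The 95% interval of its log2 difference between genotypes was -0.22 to 0.44, and the fold change was 0.11 without and 0.01 with the replicate block. Spred1 (17.1 to 17.6 FPKM in the libraries numbered 1 and 2, 19.2 to 23.3 FPKM in those numbered 3 and 4) and Spred2 (7.61 to 8.53 and 8.54 to 10.3 FPKM) split the same way, and Spred3 (1.74 to 1.94 and 1.5 to 1.69 FPKM) the opposite way. These are 4 of 21 members whose library sets did not overlap, against 38.7% of all genes tested.

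Il17rd, a membrane inhibitor of the receptors and of ERK signalling, had 8.31, 8.89 and 10.3 FPKM in Chd7 deletion 1, 3 and 4, against 9.94, 10.3, 11.9 and 12.7 FPKM in wild type 1 to 4. The groups overlapped, but each deletion library was below the wild type library of its number. The log2 fold change was -0.26 (SE 0.105; limma adjusted p = 0.602) without the block and -0.30 (SE 0.0551; adjusted p = 0.0479) with it, the call nearest to the threshold of the 5. The Sprouty genes, whose products block RAS-ERK signalling downstream of the receptors, did not pass the threshold in either fit. Spry2 had 13.3, 14.8 and 15.7 FPKM after deletion, against 15.6, 12.7, 17.4 and 18.6 FPKM in the wild type (log2 fold change -0.12, or -0.22 with the block, limma adjusted p = 0.0696). Spry1 had 4.95, 5.22 and 5.17 FPKM after deletion, against 5.31, 4.64, 6.17 and 6.9 FPKM in the wild type (-0.13, or -0.21 with the block, adjusted p = 0.152). Both had every deletion library below its wild type partner and above wild type 2. Spry4 went the other way in every pair, with 1.78, 1.9 and 2.45 FPKM after deletion and 1.53, 1.15, 1.77 and 2.24 FPKM in the wild type (0.20, or 0.10 with the block, adjusted p = 0.378).

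Spred2, a relative of Sprouty that holds back RAF activation, had 7.61, 8.55 and 8.54 FPKM after deletion, against 8.14, 8.53, 9.8 and 10.3 FPKM in the wild type, lower in each pair, with a log2 fold change of -0.17 under the block (limma adjusted p = 0.158). Spred1 and Spred3 had intervals from -0.31 to 0.27 and from -0.20 to 0.16. Dusp4, a nuclear ERK phosphatase, had 20.4, 17.3 and 13.0 FPKM after deletion, against 20.6, 17.1, 16.2 and 14.6 FPKM in the wild type. It was highest in the library numbered 1 and lowest in the library numbered 4 of each genotype, with an interval from -0.39 to 0.33.

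The ETS genes, which ERK activity is known to raise, were lower after deletion in all 3 same-number pairs for each of the 3. Etv4 had 3.17, 4.03 and 4.47 FPKM in Chd7 deletion 1, 3 and 4, against 5.29, 4.65, 5.38 and 6.96 FPKM in wild type 1 to 4. The highest deletion library was just below the lowest wild type library. The mean after deletion was 69.8% of the wild type mean, the log2 fold change was -0.42 (SE 0.134), and the limma adjusted p was 0.348 without and 0.0213 with the replicate block. Etv1 had 2.24, 2.73 and 2.85 FPKM after deletion, against 3.22, 3.06, 4.0 and 4.57 FPKM in the wild type, again without overlap and at 70.2% of the wild type mean. Its log2 fold change was -0.38 (SE 0.125), with limma adjusted p = 0.392 without and 0.0214 with the block. The exact two-sided permutation p was 0.0571 for each.

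Etv5, the most abundant of the 3, had 6.34, 7.7 and 9.08 FPKM after deletion, against 7.76, 7.83, 9.39 and 10.49 FPKM in the wild type. Its groups overlapped and its log2 fold change was -0.18 (SE 0.135; limma adjusted p = 0.928), or -0.23 with the block (adjusted p = 0.0709). In both genotypes the ETS genes were lower in the libraries numbered 1 and 2 than in number 4. Within replicates 3 and 4 the log2 fold changes were -0.44 for Etv4, -0.48 for Etv1 and -0.22 for Etv5. Within replicates 1 and 2, where Chd7 deletion 1 is the only deletion library, they were -0.52, -0.35 and -0.26 in the same order. Etv4 lies on chromosome 11 from 101769742 to 101785371 and Etv1 on chromosome 12 from 38779380 to 38870484, and neither has an exon of another gene on the other strand.

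**Figure D4:**
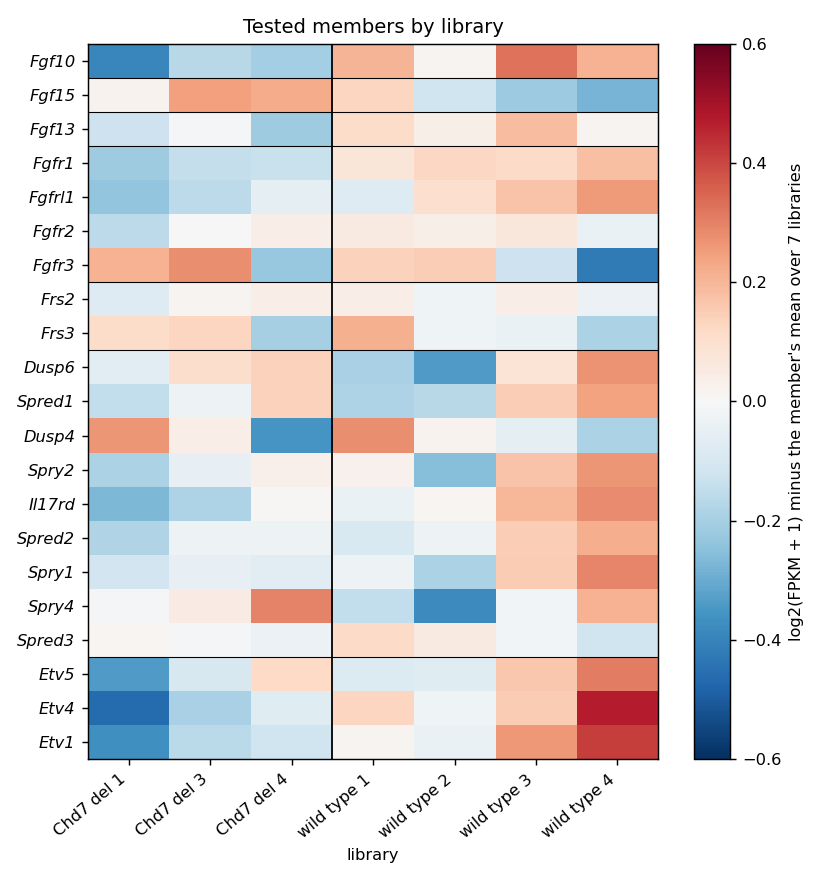
Each of the 21 tested members in the 7 libraries, Chd7 deletion left and wild type right, as log2(FPKM + 1) minus the member's mean over all libraries (red above, blue below). Fgf10 and Fgfr1 differ in colour at the line between genotypes; Etv1, Etv4, Etv5, Spry1, Spry2, Spred1, Spred2 and Il17rd are reddest in wild type 3 and 4, while Dusp4 is reddest in the libraries numbered 1.

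Of 72 other genes of the pathway, 60 were tested. In limma 2 were called higher and 1 lower, where 0.888% of all genes were called, and with the block 3 higher and 4 lower, where 3.32% were. The median log2 fold change was -0.01 beside -0.04 for all genes. Among 21 genes of heparan sulfate synthesis and its core proteins none was called without the block, and under it Gpc3 was lower and Gpc4 higher. Both encode glypicans, cell surface carriers of heparan sulfate. Gpc3 had 86.6, 115 and 125 FPKM in Chd7 deletion 1, 3 and 4, against 154, 146, 178 and 190 FPKM in wild type 1 to 4 (log2 fold change -0.62, SE 0.152, limma adjusted p = 0.159, or 0.0168 with the block). Gpc4 had 5.54, 5.97 and 6.42 FPKM after deletion, against 4.23, 4.38, 4.78 and 4.92 FPKM in the wild type (0.32, SE 0.0789, adjusted p = 0.159, or 0.0404 with the block). Neither pair of groups overlapped, and Gpc3 was above every member of the list in level. Gpc3 was also called within replicates 3 and 4 alone (limma adjusted p = 0.0237).

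Of 21 adaptors and RAS-ERK components, 1 rose, Ksr1, a scaffold of the RAF-MEK-ERK cascade. It had 3.61, 3.68 and 3.97 FPKM after deletion, against 2.63, 2.41, 2.5 and 2.78 FPKM in the wild type (log2 fold change 0.41, SE 0.0719, limma adjusted p = 0.0447). The median of these components was -0.01. Of 16 further feedback and ERK response genes 15 had a row and 12 were tested, with a median of 0.08. None was called without the block, and under it the ERK phosphatase gene Dusp9 was lower (26.4 ± 4.27 FPKM, SD, n = 3, after deletion and 34.1 ± 7.92 FPKM, SD, n = 4, in the wild type, limma adjusted p = 0.805, or 0.0278 with the block).

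Of 10 cofactors and coreceptors 9 had a row and 6 were tested. Among them are the FLRT membrane proteins, which can bind FGF receptors and also serve as guidance ligands. Flrt1 rose to 4.55 ± 0.495 FPKM (SD, n = 3) after deletion, against 2.11 ± 0.305 FPKM (SD, n = 4) in the wild type (limma adjusted p = 0.0111). Flrt2 fell to 5.03 ± 0.693 FPKM after deletion, against 9.23 ± 1.5 FPKM in the wild type (limma adjusted p = 0.043). Flrt3, a target and modulator of FGF signalling in Xenopus, was at 9.6 ± 0.748 FPKM after deletion and 12.02 ± 0.853 FPKM in the wild type, called under the block alone (adjusted p = 0.239, or 0.0393 with the block). In the fit without the block, leaving out Chd7 deletion 3, Chd7 deletion 4 or wild type 3 left 0 of the 60 genes called. Of 4 FGF genes outside the list, Fgf4 (0 FPKM after deletion, at most 0.0245 FPKM in the wild type) and Fgf23 (at most 0.021 and 0.0591 FPKM) had a row.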

How the data were processed

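RNA of GFP-positive cells from 3 Chd7 deletion and 4 wild type libraries was measured by strand-specific sequencing after ribosomal RNA depletion, per the labels' protocols. The authors deposited FPKM values per gene symbol. Build mm10 and the tools HISAT2, Partek, SAMtools, Trimmomatic 0.38 and bcl2fastq 2.18.0.12 are listed, per the submitters' processing notes. Neither the annotation nor the use of strand in counting is given in those sources. Of 19169 rows, 25 carried a date in place of a symbol and were left out.

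Values were transformed to log2(FPKM + 1), which understates changes of low genes. The 11039 genes averaging 1 FPKM or more were tested with limma 3.58.1 (trend) in R 4.3.3 with Benjamini-Hochberg adjustment, threshold 0.05; the code was tested on simulated data. Exact two-sided permutation tests used the absolute difference of the means of log2(FPKM + 1). Reads were estimated from FPKM, as the smallest whole numbers that fit the values to within 0.1 read at the depths taken from the steps of low values. The read numbers given are these estimates and not observed counts. Absolute depth is otherwise unknown. Summed FPKM was lowest in Chd7 deletion 1 (170809) and highest in wild type 4 (209560), where Rn45s, a ribosomal RNA precursor, took 8.68% and 4.11%.

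Same-numbered libraries deviated together from their group means (r = 0.70, 0.40 and 0.77 for numbers 1, 3 and 4 across genes), so the numbers were taken to pair the libraries. This comes from the data, since the labels name no shared litter or day. Libraries of different number in the same set also deviated together (r = 0.59 for deletion 1 with wild type 2, 0.38 for deletion 4 with wild type 3 and 0.25 for deletion 3 with wild type 4), so number and set are not fully told apart. The members, gene lists and tests were chosen with earlier results of these data known. Values by library are given for members with an unadjusted p below 0.05 in either fit and for the highest of each class; pathway genes are named where called. Alternatives changed the pseudocount, filter, scaling, block, set covariate, trend, weights and libraries; replicates 1 and 2 alone were added after seeing the data.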

Additional observations from a re-analysis of the deposited data

Results flagged for a closer look

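Fgf20, an FGF ligand gene, was listed at 0 FPKM in all 3 Chd7 deletion libraries and at 0.0217 FPKM in wild type 3, while the other 3 wild type libraries were also at 0. The single value above 0 stood apart from the rest of its group. The wild type group of 4 was examined for 37 genes, which were Chd7 and all members but Fgf22, listed at 0 throughout that group. Chance sets apart about 1 in 20 such groups where values vary freely. With 3 values at 0 the rule sets the remaining value apart whatever its size, so that rate does not apply to Fgf20.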

How the results depend on the processing

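With the replicate block 366 genes were called in place of 98, including 5 members and 7 other pathway genes (0 and 3 without it). The library set as covariate gave 720, 6 (Fgfrl1 added) and 9, and library weights 213 genes with 1 member, Fgf10. Other pathway genes called numbered 1 without a filter (62 genes in all), 0 at a mean of at least 5 FPKM (32), 6 after median ratio scaling (155) and 5 after scaling to equal totals without Rn45s. Leaving out 1 library gave 4 to 72 genes (4 without Chd7 deletion 4 or wild type 3), 0 members and 0 to 2 other pathway genes. Every alternative other than the replicate block was fitted without that block. The 5 members called under the block were therefore not refitted with a library left out or with another scaling, filter or pseudocount. The members' median of -0.12 was -0.047 after scaling to equal totals, -0.21 in replicates 3 and 4, and -0.17 to -0.07 with 1 library left out. The median of all genes, -0.04 in the main fit, was 0.03, -0.04 and -0.085 to 0.017 in the same order. Chd7 kept its call throughout (adjusted p 5.90e-05 to 0.0309).

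Direction held for 13 of 21 tested members under all 17 alternatives with a test, and turned for 8, none of them called. After median ratio scaling Frs2 was 0.019, Spred1 0.014, Spred3 0.0030 and Dusp4 0.0036. After scaling to equal totals Fgfr2 was 0.0034, Frs2 0.065, Spred1 0.058, Spred3 0.046 and Dusp4 0.047. In replicates 3 and 4 Fgfr2 was 0.0051, Frs2 0.025, Spred3 0.043 and Dusp6 -0.052. With weights Fgfr3 was -0.023, Frs2 0.011, Frs3 -0.10 and Spred1 0.050, and with the set covariate Dusp4 was 0.024. With 1 library left out Frs2 ran from -0.037 to 0.022, Frs3 from -0.036 to 0.13, Spred1 from -0.097 to 0.055, Spred3 from -0.062 to 0.016 and Dusp4 from -0.17 to 0.14. The cause was not tested. Fgf8 had an estimated 1 to 7 reads a library, too few to read a difference.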
